A study of Saccharomyces cerevisiae with 10 samples.

Results

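The transcripts of 10 genes for zinc uptake, zinc storage and the response to zinc were followed in 5 strains of the budding yeast Saccharomyces cerevisiae. The genes were ZPS1, ZRT1, ZRT2, ZRT3, ZAP1, IZH1, IZH2, ADH4, ZRC1 and ZRG17. All 10 were found by name among the 5824 features of the table, and all 10 passed the filter on low values. They were chosen by name, with the levels of ZPS1 and ZRT1 in these same cultures known, because these levels moved in opposite directions in different strains. The levels and the differences from WT are therefore given as a description with no p-value. Calls of members are counted beside those of all features, and nothing is read from them or from whether they held.

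The overexpression strains were LSM5-OE and PRP22-OE, which carried an extra copy of LSM5 or PRP22, and TIF35-OE and UTP6-OE, which carried one of TIF35 or UTP6. All 4 are essential genes of RNA metabolism or translation. The copy had its native promoter and terminator and sat on a low-copy centromeric plasmid with URA3 as the marker. The host was BY4741, a haploid laboratory strain, and the control was the wild type (WT). All cultures were grown without uracil and with 2% glucose, and were collected at an OD600 of 0.4. There were 2 independent cultures of each strain, so that 10 libraries were sequenced, and every overexpression strain was compared with the same 2 WT cultures. Whether the WT of this experiment carried an empty plasmid is stated for the lifespan assays of the study but not for the RNA. The WT was also grown without uracil, and URA3, the plasmid marker, was read in both WT cultures, at 919.6 and 937 FPKM. Each overexpression strain held 1 construct, and no count of separate transformants was given in the sources used here.

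Zinc supply in yeast is run by Zap1, a transcription activator that is itself kept inactive by zinc. When zinc is scarce, Zap1 binds the zinc-responsive element in the promoters of its targets and turns them on, its own gene included. The targets bring zinc in through the plasma membrane, release it from the vacuole, or replace enzymes that need much zinc with others. ZRT2 stands apart among them, because Zap1 activates it in mild zinc deficiency and represses it when the deficiency is severe.

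The zinc-responsive element was searched as ACCTTNAAGGT, in which 10 letters are fixed and N is any base, on both strands of the 500 bases before each start codon. The element is its own reverse complement, so that a match on either strand is a match on both. Matches with at most 1 fixed letter differing are given because most members hold one. The members were chosen by name as zinc genes, targets of Zap1 among them, so that such matches were likely beforehand. Each line gives 29 bases of the coding strand, from RefSeq build R64, with the matched letters in capitals and 9 bases on either side.
ZPS1, chrXV:34320-34348, plus strand: ttataattgACCTTCAGGGTtaggaccct
ZPS1, chrXV:34335-34363, plus strand: agggttaggACCCTGAAGGTtttttgtag
ZRT1, chrVII:20650-20678, plus strand: accaaagatACCCTCAAGGTtctcatctg
ZRT1, chrVII:20765-20793, plus strand: acatatttgACCTTGAAGGTcatggaaag
ZRT2, chrXII:404354-404382, minus strand: agggacataACCCTAAAGGTtatatgcga
ZRT2, chrXII:404305-404333, minus strand: tttttcacaACCTTTAGGGTacattgccc
ZRT3, chrXI:118629-118657, plus strand: gtgacaacaACCTTAAGGGTaatggactt
ZAP1, chrX:333198-333226, minus strand: cagtcatctACCCTAAAGGTcatgatgaa
IZH1, chrIV:1434498-1434526, plus strand: tatcatgcaACCTTTAGGGTccaagccct
ZRC1, chrXIII:756321-756349, minus strand: cttcagatgGCCTTGAAGGTgaggaatga
ZRG17, chrXIV:699496-699524, minus strand: aaatgatgaACCTTGAAGGTatttttgtt

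All 10 fixed letters were matched in 2 members, by the ZRT1 site whose first letter lies 204 bases before the start codon and by the ZRG17 site at 84 bases. In the other 9 sites 1 letter differs from the element. ZPS1, ZRT1 and ZRT2 each held a pair of sites, and the pair of ZPS1, at 329 and 314 bases, lay closest together. ADH4 and IZH2 had no site, and their nearest stretch differed in 3 letters. Of all 6000 promoters searched in the same way, 0.15% held an exact match, 1.97% a match with at most 1 letter differing, and 19.3% one with at most 2. Among the members, 8 of 10 held a site with at most 1 letter differing. Nothing is read from this share, since they were chosen as zinc genes. A match is a description of the letters in this window, and no binding was measured.

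**Figure D1:**
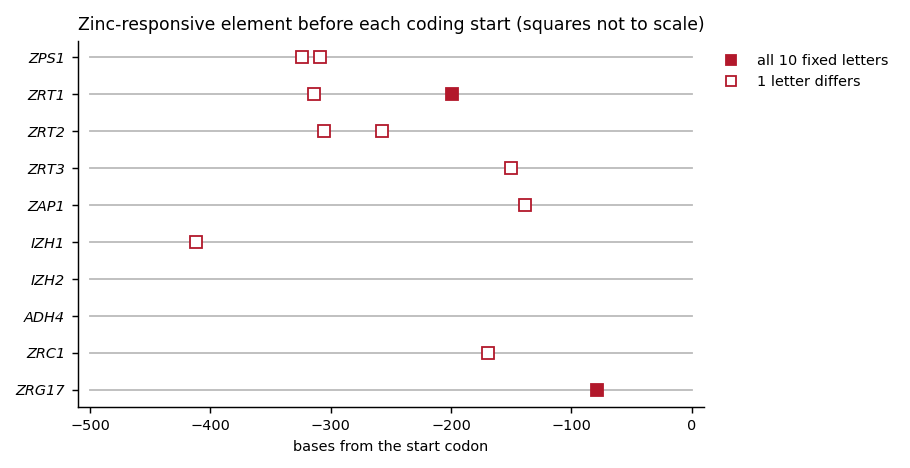
Position of the zinc-responsive element in the 500 bases before the start codon of each of the 10 genes, in bases from the start codon on the horizontal axis. Filled squares mark the sites of ZRT1 and ZRG17 in which all 10 fixed letters match, open squares mark sites in which 1 letter differs, and the lines of ADH4 and IZH2 are empty.

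The values are FPKM, the number of sequenced fragments of a gene scaled to its length and to the size of the library. The depth estimated from the spacing of low values was 13453530 to 17367342 fragments a library. The estimated fragment length was 282 to 284 bases in 3 libraries, namely the second of PRP22-OE, the first of TIF35-OE and the first of UTP6-OE, and 309 to 315 bases in the other 7. The members are 750 to 2643 bases long, and the largest ratio between the 2 cultures of a strain ranged from 1.045 for ZRT2 to 1.201 for IZH2. Each overexpressed gene was higher in its own strain, by 1.95 (LSM5), 1.08 (PRP22), 1.37 (TIF35) and 1.32 (UTP6) on the log2 scale, with limma adjusted p of 0.0113, 0.00016, 1.05e-05 and 9.86e-05. LSM5 had 865 and 1456 FPKM in LSM5-OE, and its mean was also above that of WT in the other strains, at 476 FPKM in PRP22-OE, 603 in TIF35-OE and 497 in UTP6-OE, against 290.3 FPKM in WT. The cultures of a strain differed widely, at 399 and 553 FPKM in PRP22-OE and 613 and 381 FPKM in UTP6-OE. The standard error of LSM5 was 0.31 on the log2 scale, against 0.09 for PRP22, 0.05 for TIF35 and 0.11 for UTP6. Its means are therefore uncertain, and nothing is read from those outside LSM5-OE. STE2, the pheromone receptor of MATa cells such as BY4741, lay between 420 and 611 FPKM and STE3, that of MATalpha cells, between 12.9 and 17.3 FPKM. URA3 was read in every culture, at 625 to 894 FPKM in the overexpression strains and at 919.6 and 937 FPKM in WT. HIS3, listed as deleted in BY4741, was also read in every culture, at 148 to 247 FPKM, and the reason was not tested. LEU2 and MET17, listed in the same way, and the MATa genes MFA1 and MFA2 had no values.

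ZPS1, ZRT1 and ADH4 were higher in LSM5-OE and PRP22-OE than in WT, and lower in TIF35-OE and UTP6-OE than in WT. ZRT3 was higher in LSM5-OE and PRP22-OE only, and lay within 0.07 of WT on the log2 scale in the other strains. ZRT2 was higher in PRP22-OE, TIF35-OE and UTP6-OE. The other 5 genes differed from WT by at most 0.34 on the log2 scale in any strain. Since RNA was taken from whole cultures, fewer expressing cells and less RNA per cell cannot be told apart.

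A gene is said to be called where a strain differed from WT with a limma adjusted p not above 0.05, adjusted over the 5768 features tested. In LSM5-OE, 4 members were called higher (ZPS1, ZRT1, ZRT3, ADH4) and 0 lower, where 4.7% of all features were called higher and 2.95% lower. In PRP22-OE, 7 members were called higher (the same 4 with ZRT2, IZH1 and ZRC1) and 0 lower, where the shares of all features were 7.09% and 12.2%. In TIF35-OE, ZRT2 was called higher and 4 members lower (ZPS1, ZRT1, ZAP1, ADH4), where 9.62% of all features were called higher and 20.7% lower. In UTP6-OE, 3 members were called higher (ZRT2, IZH1, ZRC1) and 4 lower (ZPS1, ZRT1, ADH4, ZRG17), where 9.95% were called higher and 19.1% lower. These contrasts chose the members, so nothing is read from the counts. The median log2 difference of the 10 members was 0.17 in LSM5-OE, 0.31 in PRP22-OE, -0.09 for TIF35-OE and -0.20 for UTP6-OE, beside medians of -0.01, -0.05, -0.10 and -0.07 over all features. The balance of calls depended on the scaling between libraries. After a rescaling of the libraries by the median of ratios, the features called higher and lower were 6.21% and 3.81% for LSM5-OE, 11.9% and 10.1% for PRP22-OE, 16.9% and 12.7% for TIF35-OE, and 17.7% and 14.9% for UTP6-OE. The members then called were the same in LSM5-OE and PRP22-OE. In TIF35-OE, ZAP1 was no longer called lower while IZH1 and ZRC1 were called higher, and in UTP6-OE ZRG17 was no longer called lower.

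**Figure D2:**
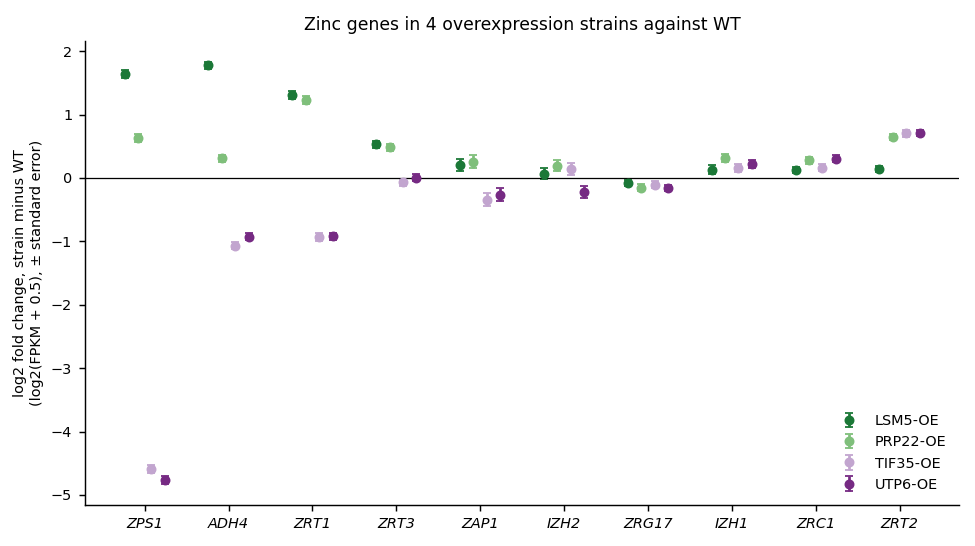
Difference from WT of the 10 genes in each overexpression strain, as log2(FPKM + 0.5) on the vertical axis, with points for the estimates and bars for ± 1 standard error of the fit over all 10 libraries. ZPS1 spans from 1.64 in LSM5-OE to -4.76 in UTP6-OE, and ZRG17, the flattest gene, from -0.08 to -0.16.

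ZPS1 (YOL154W, chromosome XV, 34658 to 35407, plus strand) encodes a cell-surface protein that resembles zinc metalloproteinases and is strongly induced when zinc is scarce. Its level was 2622 and 2539.8 FPKM in the LSM5-OE cultures and 1328 and 1235 FPKM in those of PRP22-OE. TIF35-OE had 32.0 and 35.7 FPKM and UTP6-OE had 30.0 and 30.2 FPKM, against 839.7 and 815 FPKM in WT. No neighbouring strains overlapped in the order of levels, which ran UTP6-OE, TIF35-OE, WT, PRP22-OE, LSM5-OE. The mean was 3.12-fold that of WT in LSM5-OE and 1.55-fold in PRP22-OE, with log2 differences of 1.64 and 0.63. The WT mean was 24.4 times that of TIF35-OE and 27.5 times that of UTP6-OE, with log2 differences of -4.59 and -4.76 (standard error 0.06 for all 4). The strains with the most and the least ZPS1 differed by 85.7-fold, the widest span of the 10 genes. Set against each other, ZPS1 was 0.17 ± 0.06 (standard error) higher in TIF35-OE than in UTP6-OE on the log2 scale, and 1.01 ± 0.06 higher in LSM5-OE than in PRP22-OE. The lowest library held an estimated 210 fragments of ZPS1, for a counting error of 6.9%.

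ZRT1 (YGL255W, chromosome VII, 20978 to 22108, plus strand) encodes the high-affinity zinc importer of the plasma membrane. It stood at 2390 and 2294 FPKM in LSM5-OE, 2297 and 2139.8 FPKM in PRP22-OE, 478 and 511 FPKM in TIF35-OE, and 487 and 508 FPKM in UTP6-OE, against 936 and 949.8 FPKM in WT. The levels fell into 3 tiers. LSM5-OE and PRP22-OE overlapped each other at the top, TIF35-OE and UTP6-OE overlapped each other at the bottom, and WT lay between with no overlap. On the log2 scale LSM5-OE differed from WT by 1.31, PRP22-OE by 1.23, TIF35-OE by -0.93 and UTP6-OE by -0.92 (standard error 0.06), so that the mean was 2.48-fold and 2.35-fold that of WT in the strains at the top. In TIF35-OE and UTP6-OE the WT mean was 1.91 and 1.89 times that of the strain. The difference between LSM5-OE and PRP22-OE was 0.08 ± 0.06 on the log2 scale, and that between TIF35-OE and UTP6-OE was -0.01 ± 0.06.

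ZRT2 (YLR130C, chromosome XII, 402794 to 404062, minus strand) encodes the low-affinity zinc importer of the same membrane. LSM5-OE had 169 and 161 FPKM, PRP22-OE 238 and 232 FPKM, TIF35-OE 239.8 and 249 FPKM, and UTP6-OE 248 and 246 FPKM, against 153 and 147 FPKM in WT. Every overexpression culture lay above both WT cultures, and LSM5-OE lay below the other 3 strains without overlap. The log2 difference from WT was 0.14 for LSM5-OE, 0.64 for PRP22-OE, 0.70 for TIF35-OE and 0.71 for UTP6-OE (standard error 0.05). ZRT2 was thus higher than WT in PRP22-OE, where ZRT1 was higher, and in TIF35-OE and UTP6-OE, where ZRT1 was lower. The transcript of ZRT1 was more abundant than that of ZRT2 in every culture, on a scale that corrects for length. The lowest level of ZRT1, 478 FPKM, exceeded the highest level of ZRT2, 249 FPKM, and protein was not measured.

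**Figure D3:**
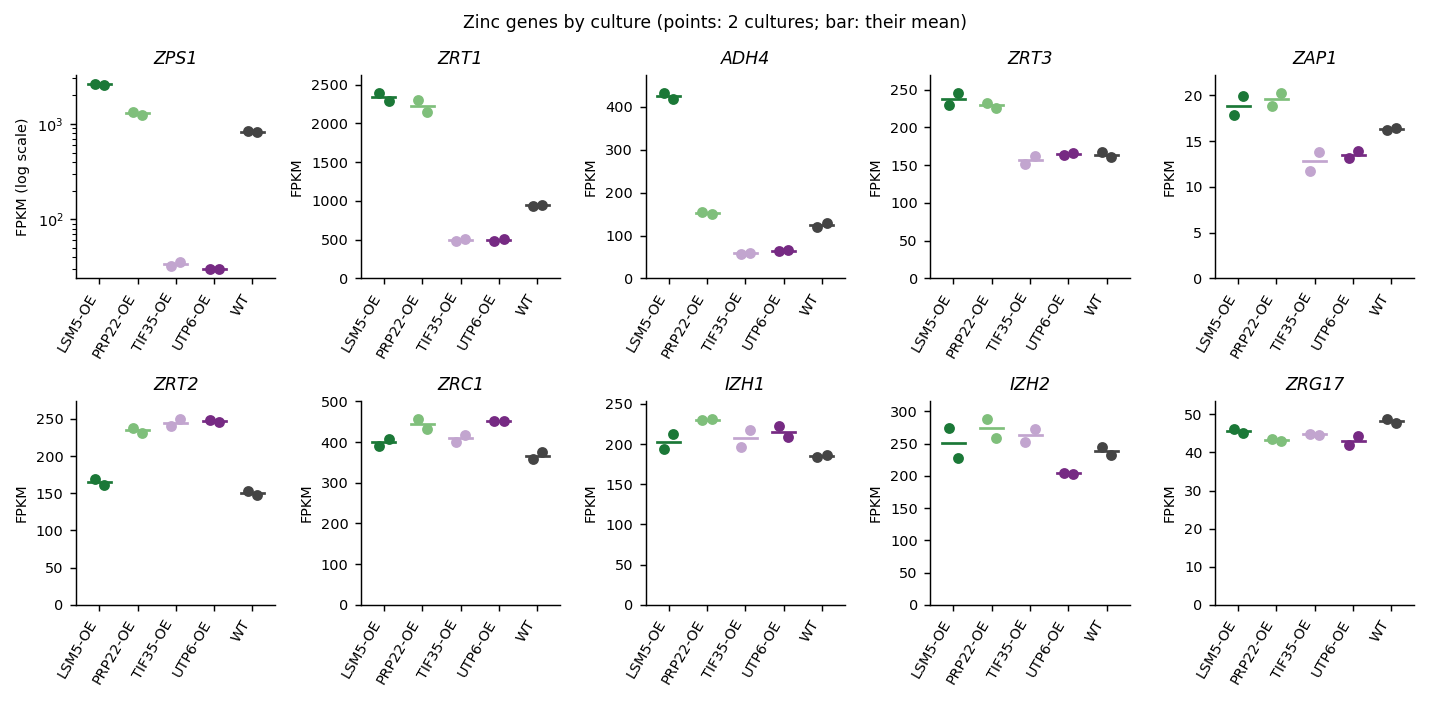
Level of each of the 10 genes in FPKM on the vertical axis, on a log scale for ZPS1 only, with 2 points for the cultures of a strain and a bar for their mean. The WT points of ZPS1, ZRT1 and ADH4 lie between those of LSM5-OE and PRP22-OE above and those of TIF35-OE and UTP6-OE below.

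ADH4 (YGL256W, chromosome VII, 15159 to 16307, plus strand) encodes an alcohol dehydrogenase that zinc-poor cells make in place of the abundant zinc enzyme Adh1. It was read at 432 and 417 FPKM in LSM5-OE, 156 and 151 FPKM in PRP22-OE, 57.2 and 60.5 FPKM in TIF35-OE, and 63.4 and 66.4 FPKM in UTP6-OE, against 119 and 129 FPKM in WT. The strains followed the same order as for ZRT1 with no overlap between neighbours. The log2 differences from WT were 1.77, 0.31, -1.07 and -0.93 (standard error 0.06). LSM5-OE and PRP22-OE, which overlapped in ZRT1, differed by 1.47 ± 0.06 in ADH4. The call in PRP22-OE was lost without the first PRP22-OE culture (0.29) and without the first WT culture (0.25). The other 3 differences kept their call in all 19 alternatives tried.

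ZRT3 (YKL175W, chromosome XI, 118793 to 120304, plus strand) encodes the transporter that releases stored zinc from the vacuole. The LSM5-OE cultures had 229.99 and 246 FPKM, 232 and 226 FPKM in PRP22-OE, 152 and 162 FPKM in TIF35-OE, and 163 and 165 FPKM in UTP6-OE, against 167 and 161 FPKM in WT. LSM5-OE and PRP22-OE overlapped each other and lay above all other cultures, while TIF35-OE and UTP6-OE each overlapped WT. The log2 differences were 0.53, 0.48, -0.07 and 0.00 (standard error 0.05). ZRC1 (YMR243C, chromosome XIII, 754838 to 756166, minus strand) encodes the transporter that works the other way, from the cytosol into the vacuole. ZRC1 had 391 and 407 FPKM in LSM5-OE, 456 and 431 FPKM in PRP22-OE, 400.1 and 418 FPKM in TIF35-OE, and 452 and 451 FPKM in UTP6-OE, against 358 and 374 FPKM in WT. All overexpression cultures lay above both WT cultures, with log2 differences of 0.13, 0.28, 0.16 and 0.30 (standard error 0.05). Its call in PRP22-OE was lost without the first PRP22-OE culture or the first WT culture (0.24 in each case), whereas that in UTP6-OE held in every alternative.

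ZAP1 (YJL056C, chromosome X, 330431 to 333073, minus strand), the gene of the activator itself, had the lowest level of the 10 genes. It was read at 17.8 and 19.9 FPKM in LSM5-OE, 18.8 and 20.2 FPKM in PRP22-OE, 11.8 and 13.8 FPKM in TIF35-OE, and 13.1 and 13.9 FPKM in UTP6-OE, against 16.2 and 16.4 FPKM in WT. LSM5-OE and PRP22-OE overlapped each other above WT, and TIF35-OE and UTP6-OE overlapped each other below it. The log2 differences were 0.20, 0.25, -0.34 and -0.26 (standard error 0.10), of which only that in TIF35-OE was called. That call was lost in 9 of 19 alternatives, among them after rescaling and with 1 culture left out, namely the first of TIF35-OE or either of PRP22-OE, UTP6-OE or WT. Its value ranged from -0.45 to -0.23. The lowest library held an estimated 396 fragments of ZAP1, for a counting error of 5.02%.

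The remaining 3 genes are IZH1, IZH2 and ZRG17. IZH1 (YDR492W, chromosome IV, 1434924 to 1435874, plus strand) and IZH2 (YOL002C, chromosome XV, 323411 to 324364, minus strand) encode membrane proteins of the progestin and adipoQ receptor family that affect zinc homeostasis. IZH1 had 194 and 212 FPKM in LSM5-OE, 229 and 231 FPKM in PRP22-OE, 197 and 217 FPKM in TIF35-OE, and 223 and 208 FPKM in UTP6-OE, against 183 and 187 FPKM in WT. All of its overexpression cultures exceeded both WT cultures, with log2 differences of 0.13, 0.31, 0.16 and 0.22 (standard error 0.07). The call in PRP22-OE was lost with any 1 of the 4 cultures of PRP22-OE and WT left out, and that in UTP6-OE with any 1 of UTP6-OE, PRP22-OE or WT left out. IZH2 was at 274 and 228 FPKM in LSM5-OE, 287 and 259 FPKM in PRP22-OE, 253 and 273 FPKM in TIF35-OE, and 204 and 203 FPKM in UTP6-OE, against 245 and 232 FPKM in WT. Both UTP6-OE cultures lay below both WT cultures, those of PRP22-OE and TIF35-OE lay above, and the LSM5-OE cultures lay on either side of WT. The log2 differences were 0.07, 0.19, 0.14 and -0.23 (standard error 0.09), none of them called. ZRG17 (YNR039C, chromosome XIV, 697614 to 699431, minus strand) encodes a partner of Msc2 in zinc transport into the endoplasmic reticulum. Its 10 values lay between 41.8 FPKM in UTP6-OE and 48.7 FPKM in WT, and every overexpression culture lay below both WT cultures. The log2 differences were -0.08, -0.15, -0.11 and -0.16 (standard error 0.05), and the call in UTP6-OE was lost in 12 of 19 alternatives, with either culture of PRP22-OE, TIF35-OE, UTP6-OE or WT left out among them. The medians over all features were also below 0, at -0.01, -0.05, -0.10 and -0.07. Over the alternatives the difference of ZRG17 in TIF35-OE ranged from -0.12 to -0.02. How many of all features lay wholly below WT was not counted, so nothing is read from this arrangement.

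The number of matched letters in the promoter did not order the genes by how far they moved. ZRT1 and ZRG17, with an exact element, had highest strain means 4.73 and 1.12 times their lowest. ADH4 and IZH2, with no site, had ratios of 7.22 and 1.34. The genes with a site in which 1 letter differs ran from 1.23 for ZRC1 to 85.7 for ZPS1, with 1.24 for IZH1, 1.52 for ZRT3, 1.53 for ZAP1 and 1.64 for ZRT2 between. The 7 other genes of the genome with an exact element and a value in the table had a median log2 difference of 0.02 for LSM5-OE, -0.01 for PRP22-OE, 0.00 for TIF35-OE and 0.02 for UTP6-OE. Of these 7, PCD1 was called higher in PRP22-OE and PAN1 lower in TIF35-OE and UTP6-OE, both named after their values were seen. A site between genes that run apart is counted for each of them. The exact site of ZRG17 is thus also that of its neighbour MRX15 on the other strand, so the 7 are not all separate sites.

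ADH4 and ZRT1 are next to each other near the left end of chromosome VII, 4670 bases apart, and the genes around them were examined for a shared shift. FZF1, which encodes a sulfite-response activator and lies 195 bases beyond ZRT1, had log2 differences of -0.35 in LSM5-OE and -0.34 in PRP22-OE, where ZRT1 was higher (limma adjusted p = 0.0163 and 0.00875). In TIF35-OE and UTP6-OE its values were -0.12 and -0.04, not called. MNT2, a mannosyltransferase gene on the other side of ADH4, was called in no strain, at 0.12, 0.04, -0.07 and -0.04. ZPS1 lies near the left end of chromosome XV. HPF1, a cell-wall gene 3051 bases to its left, had a log2 difference of 0.19 for LSM5-OE, 0.23 for PRP22-OE, 0.01 for TIF35-OE and 0.33 for UTP6-OE, of which those in PRP22-OE and UTP6-OE were called higher (limma adjusted p = 0.0389 and 0.00735). FRE7, a putative metal reductase gene 5340 bases to its right, had -0.08, -0.23, -0.69 and -0.48, of which that in TIF35-OE was called lower (adjusted p = 0.0197). FRE7 was low in every culture, at 4.04 to 8.08 FPKM, with a standard error of 0.17. VEL1, on the far side of MNT2 from ADH4, had log2 differences of 1.04, 0.22, -0.49 and -0.41, called in LSM5-OE and TIF35-OE, and is described below. Whether a shift is shared along these chromosome ends was not tested.

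**Figure D4:**
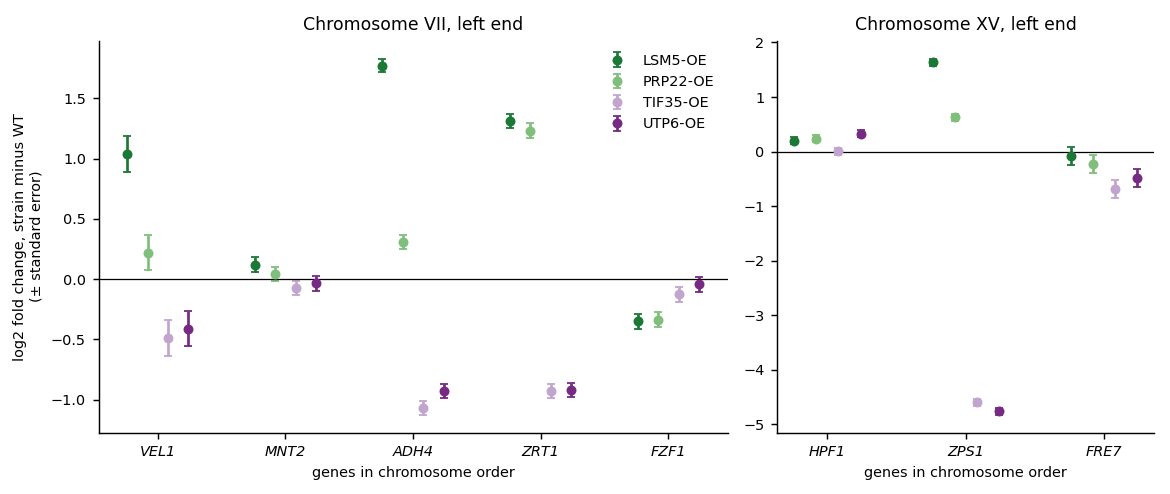
Difference from WT on the log2 scale (± 1 standard error) for genes in chromosome order, around ADH4 and ZRT1 on the left and around ZPS1 on the right. MNT2, between VEL1 and ADH4, stays within 0.12 of WT in the 4 strains, while ADH4 spans from 1.77 to -1.07.

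Other genes known to be activated by Zap1 were examined as a list of 20 from textbook knowledge. In LSM5-OE, 2 of 20 were called higher and 1 lower, where 4.7% and 2.95% of all features were. In PRP22-OE 0 were called higher and 2 lower, beside 7.09% and 12.2% of all features. In TIF35-OE 2 were called higher and 6 lower, beside 9.62% and 20.7%, and in UTP6-OE 2 and 4, beside 9.95% and 19.1%, so that these counts lie near the shares of all features. The medians of the list were 0.03, -0.01, -0.04 and -0.06 on the log2 scale, and those of all features -0.01, -0.05, -0.10 and -0.07. Thus 12 to 18 of the 20 were not called in any given strain. The 12 genes called in no strain were DPP1, TSA1, YOR387C, ZRG8, RTC4, MCD4, MNT2, ATG41 (the former ICY2), URA10, GRE2, FLO11 and CKI1. In their promoters 4 of the 20 held an element with at most 1 letter differing, 2 of them exact (RTC4 and MCD4).

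VEL1, a gene of unknown function that is strongly induced in zinc-poor cells, had 17.4 and 20.7 FPKM in LSM5-OE, 10.4 and 10.7 FPKM in PRP22-OE, 6.65 and 5.90 FPKM in TIF35-OE, and 7.46 and 5.89 FPKM in UTP6-OE, against 9.28 and 8.69 FPKM in WT. No culture of an overexpression strain overlapped WT. It rose in LSM5-OE by 1.04 ± 0.15 on the log2 scale (limma adjusted p = 0.00817, from 0.00183 to 0.0618 over the alternatives) and was lower in TIF35-OE by a log2 difference of -0.49 (adjusted p = 0.0427, from 0.0256 to 0.172). The call in LSM5-OE was lost with either WT culture left out, and that in TIF35-OE with any 1 culture of TIF35-OE, PRP22-OE or WT left out, after rescaling, and in the fit of only TIF35-OE and WT. The differences of 0.22 in PRP22-OE and -0.41 in UTP6-OE did not pass (adjusted p = 0.347 and 0.0737). VEL1 shares 92.4% of its 621 bases with YOR387C, so that reads of these genes can be exchanged, and its values are uncertain for that reason.

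FET4, which encodes a low-affinity iron and zinc transporter, had 82.4 and 82.3 FPKM in LSM5-OE, 72.4 and 71.3 FPKM in PRP22-OE, 51.0 and 54.6 FPKM in TIF35-OE, and 42.0 and 41.4 FPKM in UTP6-OE, against 78.3 and 80.02 FPKM in WT. It was lower in TIF35-OE and UTP6-OE, with log2 differences of -0.58 and -0.92 (limma adjusted p = 0.000244 and 1.37e-05), and both calls held in all alternatives. In LSM5-OE and PRP22-OE, where ZRT1 was higher, its differences were 0.06 and -0.14 (adjusted p = 0.553 and 0.092). UTH1, a gene of the SUN family of the cell wall and mitochondria, was lower in PRP22-OE, TIF35-OE and UTP6-OE, by log2 differences of -0.48, -0.78 and -0.79 (adjusted p = 0.0119, 0.00133 and 0.00086). Its call in PRP22-OE was lost without the second PRP22-OE culture or either WT culture, with an adjusted p of up to 0.0723. PST1, a cell-wall gene, was higher in TIF35-OE and UTP6-OE, where ZPS1, ZRT1 and ADH4 were lower, with log2 differences of 0.39 in each (adjusted p = 0.00303 and 0.0022), and was also higher in LSM5-OE, by 0.34 (adjusted p = 0.0135), a call lost without the first LSM5-OE culture or either WT culture (adjusted p of up to 0.109).

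The remaining calls of this list were smaller. IZH4, of the same family as IZH1 and IZH2, was lower in UTP6-OE by a log2 difference of -0.63 (limma adjusted p = 0.000586), in TIF35-OE by -0.35 (0.0104) and in LSM5-OE by -0.31 (0.0426). NRG2, a repressor of glucose-repressed genes, was lower in UTP6-OE (-0.51, adjusted p = 0.00938) and TIF35-OE (-0.37, 0.0327). EKI1, for ethanolamine kinase, was lower in PRP22-OE (-0.21, 0.0352) and TIF35-OE (-0.18, 0.0431). PIS1, for phosphatidylinositol synthase, was higher in UTP6-OE (0.29, 0.00443) and TIF35-OE (0.21, 0.0179). The calls of IZH4 and PIS1 in UTP6-OE held in all alternatives. The other 7 calls ended with some culture left out. IZH4 in TIF35-OE ended without the first TIF35-OE or the first WT culture (adjusted p of up to 0.0702), and NRG2 in UTP6-OE without the second UTP6-OE or the second WT culture (0.0548). NRG2 and PIS1 in TIF35-OE ended with any 1 culture of TIF35-OE or WT left out (0.144 and 0.116). EKI1 ended in PRP22-OE (0.195) and in TIF35-OE (0.18) with any 1 culture other than those of LSM5-OE left out, and IZH4 in LSM5-OE with any 1 culture other than the first of LSM5-OE left out (0.229).

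**Figure D5:**
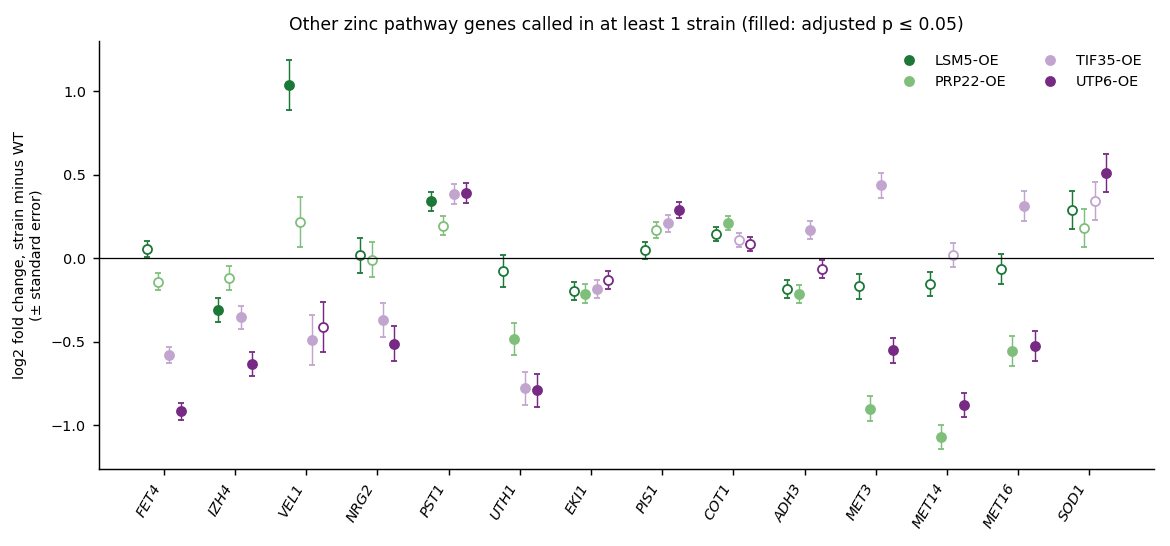
Difference from WT on the log2 scale (± 1 standard error) of the 14 pathway genes outside the 10 members that were called in at least 1 strain, with filled points for an adjusted p of at most 0.05. VEL1 stands highest, at 1.04 in LSM5-OE, and MET14 lowest, at -1.07 in PRP22-OE.

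Genes of the opposite kind, known to be lowered when zinc is scarce, formed a list of 5. Of these, 0 were called in LSM5-OE, 4 were called lower in PRP22-OE (ADH3, MET3, MET14, MET16), 3 higher in TIF35-OE (ADH3, MET3, MET16) and 3 lower in UTP6-OE (MET3, MET14, MET16). Of all features, 4.7% were called higher and 2.95% lower in LSM5-OE, 12.2% lower in PRP22-OE, 9.62% higher in TIF35-OE and 19.1% lower in UTP6-OE. The medians of the list were -0.17, -0.55, 0.21 and -0.52 on the log2 scale, beside -0.01, -0.05, -0.10 and -0.07 for all features. MET3, MET14 and MET16 act in sulfate assimilation, so that their calls need not be separate events, and nothing is read from the counts. MET14, for adenylylsulfate kinase, had 351 and 317 FPKM in PRP22-OE and 389.9 and 374 FPKM in UTP6-OE, against 743 and 663 FPKM in WT, and its log2 differences were -1.07 and -0.88 (limma adjusted p = 5.92e-05 and 0.000111). MET3, for ATP sulfurylase, was lower in PRP22-OE (-0.90, adjusted p = 0.000166) and UTP6-OE (-0.55, 0.00146) and higher in TIF35-OE (0.44, 0.00517). MET16, for the reductase of a later step, was lower in PRP22-OE (-0.55, 0.00495) and UTP6-OE (-0.52, 0.0044) and higher in TIF35-OE (0.32, 0.0334). ADH3, a mitochondrial alcohol dehydrogenase gene, was lower in PRP22-OE (-0.21, 0.0289) and higher in TIF35-OE (0.17, 0.0471). ADH1, the main alcohol dehydrogenase, was called in no strain. The calls of MET16 and ADH3 in TIF35-OE were lost with any 1 of the 4 cultures of TIF35-OE and WT left out, for ADH3 also with either UTP6-OE culture left out, and that of ADH3 in PRP22-OE without the second PRP22-OE culture or either WT culture, with adjusted p of up to 0.176, 0.189 and 0.151.

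Of 4 other genes of zinc transport, only COT1, for a vacuolar zinc and cobalt transporter related to Zrc1, was called, at 0.21 in PRP22-OE (limma adjusted p = 0.0107, up to 0.0818 without 1 culture of PRP22-OE or WT). MSC2, IZH3 and YKE4 were called in no strain. Of 4 genes for abundant zinc-binding proteins, SOD1, for copper-zinc superoxide dismutase, was higher in UTP6-OE by 0.51 (adjusted p = 0.0136, up to 0.0751 without 1 culture of UTP6-OE or WT). FBA1, ADH2 and RPB10 were not called. Over all 33 genes outside the members, 2 were called higher and 1 lower in LSM5-OE, where the shares of all features were 4.7% and 2.95%. In PRP22-OE, 1 was called higher and 6 lower, beside 7.09% and 12.2%. In TIF35-OE, 5 were called higher and 6 lower, beside 9.62% and 20.7%, and in UTP6-OE 3 and 7, beside 9.95% and 19.1%. These totals pool genes activated by Zap1 with genes lowered when zinc is scarce, so nothing is read from them. The latter gave 4 of the 6 lower calls in PRP22-OE, 3 of the 5 higher calls in TIF35-OE and 3 of the 7 lower calls in UTP6-OE.

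Finally, the features whose pattern over the 5 strain means was most like that of ZPS1 or ZRT1 were listed, among the 430 features whose means spanned at least 1 on the log2 scale. Pearson's r over 5 points that share the same libraries is a description only. Closest to ZPS1 were FTR1 (r = 0.998), RUF23 (0.983), SIT1 (0.982), FET3 (0.972) and RUF5-1 (0.969). FTR1, FET3 and SIT1 encode the high-affinity iron permease, its multicopper oxidase and a siderophore transporter, all of iron uptake. RUF23 was listed at 0 in 7 of the 10 libraries, so that its r rests on 3 values. In PRP22-OE, where ZPS1 was higher, SIT1 and RUF5-1 had log2 differences of -0.10 and -0.19, neither of them called. FTR1 had 476 and 440.5 FPKM in LSM5-OE, 451 and 408 FPKM in PRP22-OE, 217 and 228 FPKM in TIF35-OE, and 212 and 228 FPKM in UTP6-OE, against 393 and 399.8 FPKM in WT. Its span was narrower than that of ZPS1, with log2 differences of 0.21, 0.11, -0.83 and -0.85. Closest to ZRT1 were YGR035C (0.991), FET3 (0.966), ZPS1 (0.940), FTR1 (0.934) and the glucose transporter gene HXT2 (0.925). YGR035C was called in no strain (limma adjusted p from 0.241 to 0.527), with a standard error of 0.39 on the log2 scale. Its cultures differed widely, at 35.8 and 70.7 FPKM in WT and 47.8 and 24.15 FPKM in UTP6-OE, so that its r is uncertain. FET3 had log2 differences of 0.34, 0.32, -0.76 and -0.54. After rescaling by the median of ratios FTR1 and RUF5-1 no longer spanned enough to be compared. Among the members, the pattern of ZAP1 had r = 0.982 with that of ZRT1, that of ADH4 0.900, and that of ZRT2 -0.426. VEL1 had r = 0.998 with ADH4.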

How the data were processed

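RNA of 10 cultures, 2 of each of 5 strains, was sequenced as 150 bp read pairs, and the samples were grouped by their labels. Per the methods of the study, the authors mapped reads to S288c with HISAT2 and counted them with featureCounts, whereas the submitters' processing notes name STAR, RSEM, edgeR and limma. The deposited values are FPKM computed by the authors, and both deposited tables, also the one described as raw reads, held identical values in all 58240 cells. How strands were counted and the release of S288c are not given in the sources used here, so reads of a gene and of an antisense transcript cannot be told apart. The tables held no column outside the 10 samples and no fold changes of the authors.

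FPKM are not counts, so log2(FPKM + 0.5) was tested with limma 3.58.1 (R 4.3.3), using lmFit and then eBayes with trend = TRUE. The 5768 features whose mean reached 1 FPKM were kept. All 10 libraries were in 1 fit with 5 residual degrees of freedom, tests were two-sided, and the Benjamini-Hochberg adjustment was applied strain by strain. The fit was also run on simulated data with independent errors, which cannot show how it behaves where errors are shared between libraries. Fold changes are on the log2(FPKM + 0.5) scale, which understates those of low genes. With 2 cultures a strain the p-values rest on the spread between cultures, and they take the libraries as independent.

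Depth was estimated from the spacing of low FPKM values, of which 71.4% to 89.4% lay within 0.15 of a whole fragment in a library. It was used only to describe precision, and the errors derived from it cover counting error only. Of the features, 5775 matched RefSeq build R64 by name, which gave positions and sequence. Its gene models run from start codon to stop codon, so the promoter window was counted from the start codon. No protein sequence was used here.

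The members, the pathway lists and the tests were chosen with earlier results of these data known. Genes named with values besides the members are, by rule, the pathway genes called in at least 1 strain, the 5 features most like ZPS1 and ZRT1 in pattern, the neighbours of ZPS1, ZRT1 and ADH4, and the 4 overexpressed genes. Markers of mating type, of the deletions of BY4741 and of the plasmid were added as checks. Pathway genes called in no strain are given by name, and PCD1 and PAN1 were named after their values were seen. Alternatives were pseudocounts of 0.1 and 1, no filter on low values, a filter at a mean of 5 FPKM, scaling libraries by the median of ratios, a fit of only the strain and WT, a replicate block, no trend, features of at least 400 bases, and each culture left out. Tables and plots were made in Python 3.11.15 (numpy 2.4.6, pandas 2.3.3, matplotlib 3.10.9, scipy 1.17.1).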

Additional observations from a re-analysis of the deposited data

Results flagged for a closer look

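In ZPS1, ZRT1, ADH4, ZAP1 and IZH2, every culture of some strains lay above both WT cultures and every culture of others lay below both. How many of all features show such an arrangement was not counted, so nothing is read from the number of genes. None of the differences of IZH2 from WT was called. The difference between the strains was not tested, since it is among the values by which the genes were chosen. ZPS1 differed by 6.40 on the log2 scale between LSM5-OE and UTP6-OE, ADH4 by 2.84 between LSM5-OE and TIF35-OE, and ZRT1 by 2.24 between LSM5-OE and TIF35-OE. In these 3 genes both cultures of LSM5-OE and PRP22-OE lay above WT, and both cultures of TIF35-OE and UTP6-OE below it. ZAP1 had the same arrangement with a difference of 0.60 between PRP22-OE and TIF35-OE. IZH2 differed by 0.42 between PRP22-OE and UTP6-OE, with the cultures of PRP22-OE and TIF35-OE above WT and those of UTP6-OE below it.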

How the results depend on the processing

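Of the 23 member calls, 17 held in all 19 alternatives, and no called difference changed sign. Nothing is read from this, since the members were chosen with these contrasts known and the alternatives reuse the same libraries. Counts of features called moved most with single cultures left out, to 82 to 360 in LSM5-OE, 519 to 1255 in PRP22-OE, 723 to 2018 in TIF35-OE and 864 to 1907 in UTP6-OE, against 441, 1114, 1748 and 1678 with all cultures. In the fit of only LSM5-OE and WT, 105 features and 0 of the pathway genes were called in LSM5-OE. With cultures left out, 4 to 7 members were called in PRP22-OE, 4 without the first PRP22-OE or the first WT culture. The pathway genes called then were 0 to 2 in LSM5-OE, 3 to 7 in PRP22-OE and 4 to 12 in TIF35-OE, against 3, 7 and 11 with all cultures. In PRP22-OE they were 12 after rescaling and 11 among features of at least 400 bases. For these shifts the cause was not tested, beyond the smaller number of cultures where some were left out. Besides cultures left out, rescaling ended the calls of ZAP1 in TIF35-OE (-0.26) and ZRG17 in UTP6-OE (-0.09), and made those of IZH1 and ZRC1 in TIF35-OE (0.25 each). The fit of only the strain and WT ended those of ZAP1 in TIF35-OE (-0.34) and ZRG17 in UTP6-OE (-0.16) and made that of IZH2 in UTP6-OE (-0.23). Among features of at least 400 bases ZRG17 was lost in UTP6-OE and ZRC1 gained in TIF35-OE (0.16), and without the trend IZH1 was lost in UTP6-OE (0.22). Of the differences that were not called, IZH2 in LSM5-OE was -0.06 without the first LSM5-OE culture, ZRT3 in TIF35-OE was 0.02 after rescaling, and ZRT3 in UTP6-OE was -0.01 without the second UTP6-OE culture and -0.03 without the second WT culture.

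The culture numbers did not pair the cultures. The difference of culture 1 from culture 2, set against that of another strain across all features, gave r between -0.36 and 0.432. Among features of at least 400 bases r was -0.787 for PRP22-OE with TIF35-OE, -0.757 for PRP22-OE with UTP6-OE and 0.73 for TIF35-OE with UTP6-OE, and between -0.0928 and 0.11 for the other pairs of strains. The 3 libraries with fragments of 282 to 284 bases are in these 3 strains, culture 2 of PRP22-OE and culture 1 of TIF35-OE and UTP6-OE, and the part of fragment length in this was not tested. No library of LSM5-OE or WT is among them. A block on the culture number cannot take up this shared difference, because it runs the other way in PRP22-OE. The fit takes the libraries as independent, so the adjusted p for these 3 strains do not allow for it. With the culture number as a replicate block, 4 members were called in LSM5-OE, 7 in PRP22-OE, 5 in TIF35-OE and 5 in UTP6-OE, against 4, 7, 5 and 7 without the block, and ZRG17 and IZH1 lost their calls in UTP6-OE. Among the pathway genes the block ended the calls of VEL1 and ADH3 in TIF35-OE, of EKI1 in PRP22-OE and TIF35-OE and of IZH4 in LSM5-OE. The features called with the block were 326, 1002, 1620 and 1574 in that order.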
